A study of Capra hircus with 6 samples.

Results

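The genes described here encode the interleukin-6 (IL6) cytokine family and the receptor chains through which it signals. They were the rows of the deposited tables whose symbol was 1 of 10 family members, namely the ligands IL6, IL11, LIF, CLCF1 and CTF1 and the receptor chains IL6R, IL11RA, IL6ST, LIFR and OSMR. All 10 symbols were found among 16262 gene rows. RNA was sequenced from adipose mesenchymal stem cells of the goat (Capra hircus), stromal precursors that can turn into adipocytes. The TAZ group held 3 libraries of cells overexpressing TAZ, the product of WWTR1 and a coactivator of transcription that Hippo signalling restrains, and the Control group held 3 libraries of WT genotype. Cells of both groups carried the treatment label adipogenic differentiation. The question put was what TAZ does to adipogenesis. TNF-α appears in the title of the study, but the sample labels list no cytokine among the treatments. The sources used here do not give how TAZ was introduced, whether a line was 1 clone, which vector the controls carried, or the breed and age of the animals. Since the labels do not tie the replicates to separate cultures or animals, p-values here reflect only how far these 6 libraries scatter, and that scatter may be technical.

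Cytokines of this family share a signalling chain, gp130, which IL6ST encodes. IL6 and IL11 first bind a private chain, IL6R or IL11RA, that has no signalling tail of its own, and then recruit gp130. IL6R is found on few cell types, chiefly hepatocytes and leukocytes, and a shed form of it can carry IL6 to cells that lack it, a route known as trans-signalling. LIF, CTF1 (cardiotrophin 1) and CLCF1 signal through a pair of gp130 and LIFR, whereas oncostatin M (OSM) uses a pair of gp130 and OSMR. Janus kinases bound to these chains phosphorylate STAT3, which induces SOCS3, which shuts the receptor down. Stromal cells of fat are a known source of IL6, IL11 and LIF.

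Levels are given as FPKM, fragments per kilobase of gene after scaling to the fragments of the library, a scale per gene length on which genes can be set beside each other. Library totals, inferred from the step size of low FPKM values, were 16935698 to 18852822 fragments, and a tested gene of median length had 52.3 fragments for each FPKM. WWTR1, the overexpressed gene, stood at 84.6, 118.1 and 84.2 FPKM in TAZ replicates 1, 2 and 3, against 30.2, 29.9 and 35.9 FPKM in Control replicates 1, 2 and 3. The 10 stromal markers summed to 10000.0 to 11340 FPKM in the TAZ libraries and 9113 to 10020 FPKM in the Control libraries. Most of that sum was COL1A1, COL1A2 and DCN. Their means were 4101, 2879 and 2188 FPKM in the TAZ libraries, against 3674, 2970 and 1430 FPKM in the Control libraries. Of the 10, 4 were called higher (PDGFRB, CD44, LUM and DCN) and 2 lower (THY1 and ENG). That is 60% called, beside 37.9% over all tested genes. Of 8 adipocyte markers, 6 lay under the filter on low genes, and the list summed to 18.9 to 21.8 FPKM in the TAZ libraries and 18.4 to 20.7 FPKM in the Control libraries, so the RNA carried stromal markers at high levels and most fat cell markers at low ones. Most of that sum was CIDEC, at means of 17.8 FPKM in the TAZ libraries and 18.3 FPKM in the Control libraries. LIPE, the other tested gene of the list, was called higher (2.125 against 1.013 FPKM, limma adjusted p = 0.000168). It passed the filter only through the TAZ libraries. CD36, under the filter, was lower in each TAZ library than in each Control library. Of 11 leukocyte markers in the tables, 9 lay under the filter, and PTPRC, which encodes the pan-leukocyte antigen CD45, was listed at 0 in each of the 6 libraries. The summed level of the leukocyte list was 27.5 to 28.2 FPKM in the TAZ libraries against 13.9 to 17.3 FPKM in the Control libraries. Most of that sum was CD14, a receptor for bacterial lipopolysaccharide, at 24.2 ± 0.421 FPKM in the TAZ libraries and 9.58 ± 1.38 FPKM in the Control libraries (SD, n = 3 each). CD68, a macrophage marker and the other tested gene of the list, fell to 2.86 ± 0.333 FPKM in the TAZ libraries, against 4.53 ± 0.437 FPKM in the Control libraries (log2 fold change -0.52, adjusted p = 0.00185). Under the filter, the lymphocyte markers CD3E and CD79A were lower in each TAZ library than in each Control library, and the integrin gene ITGB2 was higher. The summed endothelial, epithelial and pericyte markers were at 0.137 to 0.316, 0.890 to 1.59 and 39.0 to 50.4 FPKM in the TAZ libraries, against 0.336 to 0.533, 0.835 to 1.44 and 34.5 to 45.1 FPKM in the Control libraries. The part of these marker genes in the results for the IL6 family was not tested. In bulk RNA a change in the number of cells of a type and a change in RNA per cell cannot be told apart.

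Of the 10 family genes, 7 passed the filter of 1 FPKM or more in at least 3 libraries and 3 (CTF1, IL6R and LIFR) did not. Among the 7 tested, 5 were higher (IL6, IL11, LIF, CLCF1 and OSMR), 1 was lower (IL11RA) and 1 (IL6ST) did not pass the test, which was limma on log2(FPKM + 1) with a threshold of 0.05 on p-values adjusted over all tested genes. Over all 10750 tested genes 37.9% were called in either direction, 15.7% higher and 22.1% lower in the TAZ libraries. The split over all genes was 1693 higher and 2381 lower, and with median-ratio scaling it became 2001 higher and 1821 lower, whereas the 6 calls among the family genes kept their directions under that scaling. The median log2 fold change of the 7 tested members was 1.07, and that of all tested genes was -0.05. For 6 of the 7 each TAZ library lay on the same side of each Control library, as it did for 48.4% of all tested genes. Of the 7, 5 were called with a log2 fold change of at least 1 in size (IL6, LIF, OSMR, IL11 and IL11RA), as were 4.52% of all tested genes. IL11 and IL11RA lay near that cut, at 0.93 for IL11 without TAZ replicate 2 and -0.96 for IL11RA with median-ratio scaling. The members were chosen with earlier results of these data known, so these shares are no test of the family.

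**Figure D1:**
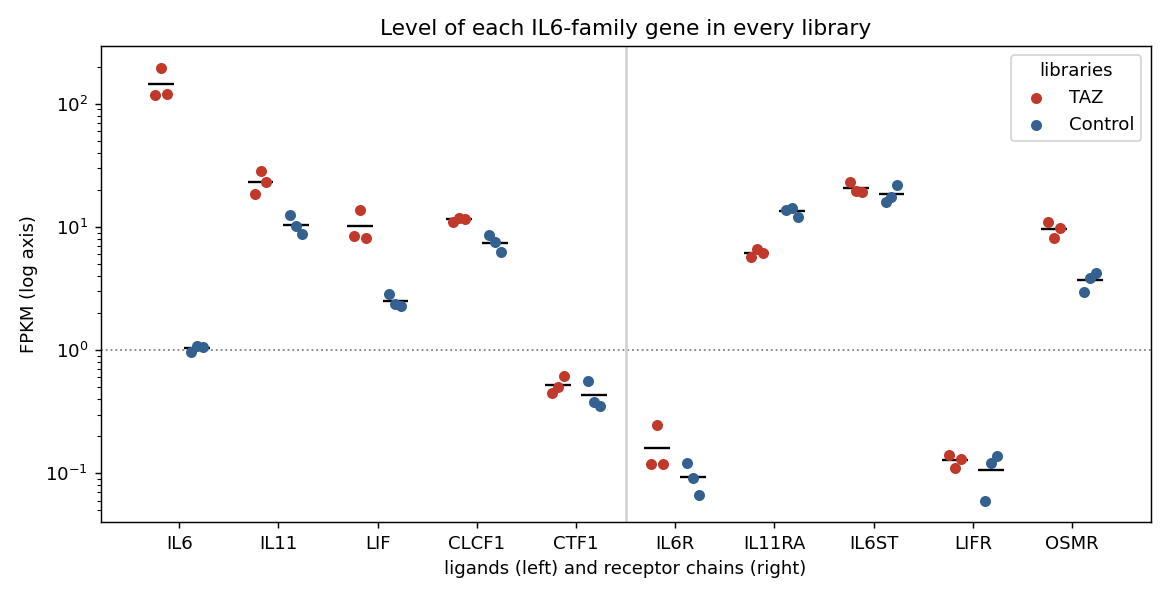
FPKM on a log axis of each ligand (left of the grey line) and receptor chain (right of it) in the 3 TAZ libraries (red) and the 3 Control libraries (blue). Points are libraries, black bars are group means and the dotted line marks 1 FPKM. IL6 separated the groups most widely, at means of 144 FPKM in the TAZ libraries and 1.03 FPKM in the Control libraries, and CTF1, IL6R and LIFR stayed under 1 FPKM in all 6.

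IL6, the inflammatory cytokine that gives the family its name, had the widest separation. It stood at 116.8, 196.6 and 119.5 FPKM in TAZ replicates 1, 2 and 3, against 0.958, 1.08 and 1.06 FPKM in Control replicates 1, 2 and 3. Each TAZ library lay more than 100 times above each Control library, and TAZ replicate 2 was the highest. In fragments, IL6 drew 1248, 2323.5 and 1383.5 in the TAZ libraries, against 10.5, 11.5 and 11.5 in the Control libraries. The log2 fold change was 6.12 (SE 0.16, 95% interval 5.77 to 6.46, limma adjusted p = 3.9e-12), the 4th largest rise among the tested genes. IL6 passed the filter only through the TAZ libraries, since Control replicate 1 lay under 1 FPKM. The limma fit with no filter called it as well (adjusted p = 6.9e-06). Adding 1 to each FPKM value compresses a gene with so low a Control level, and the ratio of mean FPKM was 139.6. From the summed fragments, 4955 in the TAZ libraries and 33.5 in the Control libraries, the ratio was 139 with an exact 95% interval of 99.1 to 200.5 that covers counting error only. Without TAZ replicate 2 the ratio of means was 114.3. By mean level IL6 ranked 465th of the 16262 genes in the TAZ libraries and 10552nd in the Control libraries. The gene length recovered for IL6 was 627 bases, the shortest of the 10 members, so its level beside other genes rests on a short gene model.

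LIF, leukaemia inhibitory factor, showed the next largest rise. It stood at 8.49, 13.8 and 8.12 FPKM in TAZ replicates 1, 2 and 3, against 2.87, 2.37 and 2.28 FPKM in Control replicates 1, 2 and 3. The lowest TAZ library was above the highest Control library, and TAZ replicate 2 was again the highest. The log2 fold change was 1.64 (SE 0.16, 95% interval 1.29 to 1.98, adjusted p = 3.73e-06), and the ratio of mean FPKM was 4.05, or 3.31 without TAZ replicate 2.

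IL11, a cytokine of stromal cells known to act on fibroblasts and to restrain fat cell formation in culture, was already expressed in the Control cells. It stood at 18.4, 28.2 and 23.1 FPKM in TAZ replicates 1, 2 and 3, against 12.5, 10.2 and 8.69 FPKM in Control replicates 1, 2 and 3. The groups did not overlap. On the log2 scale the change was 1.07 (SE 0.15, 95% interval 0.75 to 1.39, adjusted p = 8.47e-05), with a ratio of mean FPKM of 2.22.

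CLCF1, cardiotrophin-like cytokine factor 1, rose least among the called ligands. It stood at 11.1, 11.9 and 11.5 FPKM in TAZ replicates 1, 2 and 3, against 8.53, 7.48 and 6.21 FPKM in Control replicates 1, 2 and 3. The TAZ libraries lay close together, and each was above each Control library. Its log2 fold change was 0.58 (SE 0.11, 95% interval 0.34 to 0.82, adjusted p = 0.00105) and the ratio of mean FPKM 1.55.

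CTF1 was too low to be tested with the filter, at 0.446, 0.503 and 0.617 FPKM in TAZ replicates 1, 2 and 3, against 0.565, 0.381 and 0.351 FPKM in Control replicates 1, 2 and 3. The groups overlapped. The libraries held 10 to 15 fragments of it in the TAZ group and 8 to 13 in the Control group. A fit with no filter, in which 25.2% of 16021 genes were called, gave an adjusted p of 0.398, and the exact counting interval of the ratio, 0.727 to 2.01, covers both no change and a doubling.

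The make-up of the ligand transcripts differed between the groups. The summed FPKM of the 5 ligands was 155.3, 251 and 162.9 in TAZ replicates 1, 2 and 3, against 25.4, 21.5 and 18.6 in Control replicates 1, 2 and 3. IL6 made up 75.6% ± 2.49 of that sum in the TAZ libraries and 4.83% ± 0.984 in the Control libraries (SD, n = 3 each). IL11 and CLCF1 made up 12.4% ± 1.54 and 6.32% ± 1.37 in the TAZ libraries, against 47.8% ± 1.26 and 33.9% ± 0.761 in the Control libraries. Both shares were lower in the TAZ libraries although the level of both genes was higher there, since the sum includes IL6. Shares were not tested.

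**Figure D2:**
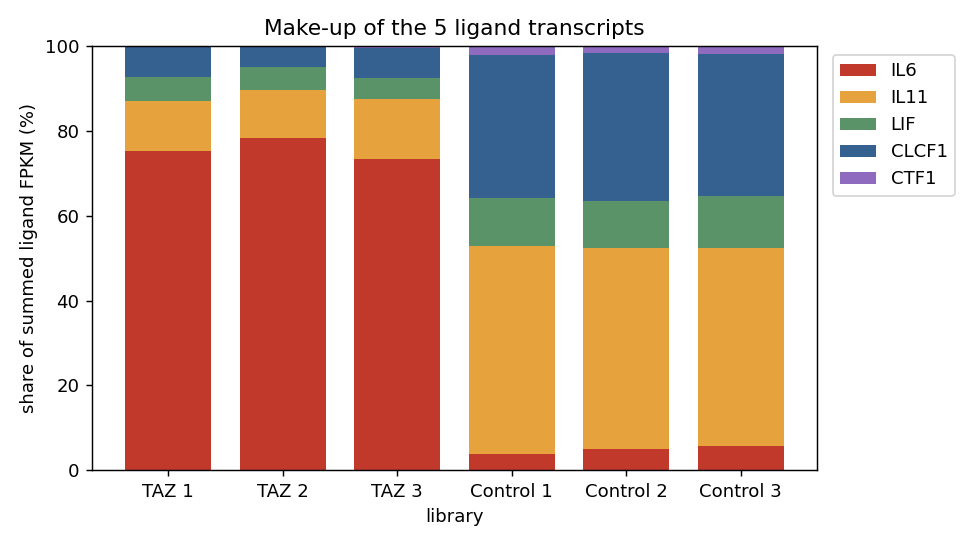
Share of each ligand in the summed FPKM of the 5 ligands (y axis, percent) for each library (x axis), as stacked bars. IL6 fills 73.4% to 78.3% of the bars of the TAZ libraries and 3.77% to 5.70% of those of the Control libraries, where IL11 and CLCF1 fill most of the bar.

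Among the 5 receptor chains of the member list, IL6ST (gp130) had the highest mean FPKM in both groups. It stood at 23.04, 19.5 and 19.3 FPKM in TAZ replicates 1, 2 and 3, against 15.8, 17.3 and 22.1 FPKM in Control replicates 1, 2 and 3. The groups overlapped, with Control replicate 3 among the TAZ values. The log2 fold change was 0.16 (SE 0.12, adjusted p = 0.311), and its 95% interval of -0.10 to 0.42 excludes a change of 1 on this scale in either direction. Without Control replicate 3 the gene passed the test as higher (log2 fold change 0.29, adjusted p = 0.0372), so that library decides the call.

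OSMR, the oncostatin M receptor chain, rose. It stood at 11.0, 8.09 and 9.88 FPKM in TAZ replicates 1, 2 and 3, against 2.96, 3.88 and 4.26 FPKM in Control replicates 1, 2 and 3. The groups did not overlap. Its log2 fold change was 1.18 (SE 0.13, 95% interval 0.90 to 1.46, adjusted p = 1.15e-05) and the ratio of mean FPKM 2.61. Its ligand gene OSM, which is made mainly by leukocytes, drew 0.5 fragments over the 3 TAZ libraries together and 0 over the 3 Control libraries. In a library with none, as many as 3 fragments could have been missed, which for OSM is at most 0.0985 FPKM, and no fold is given at that level.

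IL11RA, the private receptor chain of IL11, fell. It stood at 5.68, 6.62 and 6.17 FPKM in TAZ replicates 1, 2 and 3, against 13.8, 14.3 and 12.1 FPKM in Control replicates 1, 2 and 3. The highest TAZ library was under the lowest Control library by a wide margin. The log2 fold change was -1.01 (SE 0.099, 95% interval -1.23 to -0.80, adjusted p = 4.13e-06), and the ratio of mean FPKM was 0.458. IL11 and its receptor chain thus moved in opposite directions, and the ratio of IL11 to IL11RA FPKM was 3.24, 4.26 and 3.74 in TAZ replicates 1, 2 and 3, against 0.905, 0.711 and 0.716 in Control replicates 1, 2 and 3.

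IL6R, the private receptor chain of IL6, was close to the limit of detection. It stood at 0.119, 0.245 and 0.1201 FPKM in TAZ replicates 1, 2 and 3, against 0.121, 0.0911 and 0.0669 FPKM in Control replicates 1, 2 and 3. The groups overlapped, and the fragments numbered 10.5 to 24 in the TAZ libraries and 6 to 11 in the Control libraries. The fit with no filter did not call it (adjusted p = 0.22). The exact counting interval of the ratio was 1.05 to 2.97, which leaves out the spread between libraries, and the ratio of means was 1.73 with TAZ replicate 2 and 1.28 without it. IL6ST FPKM was 144.6 ± 59.0 times that of IL6R in the TAZ libraries and 217 ± 102.5 times in the Control libraries (SD, n = 3 each). The receptor chain through which IL6 acts directly thus had few transcripts in either group, while the ligand was among the more abundant messages of the TAZ cells.

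LIFR, the chain that LIF, CTF1 and CLCF1 need beside gp130, was equally low. It stood at 0.141, 0.111 and 0.1301 FPKM in TAZ replicates 1, 2 and 3, against 0.0601, 0.121 and 0.139 FPKM in Control replicates 1, 2 and 3. The groups overlapped, and 69 fragments in the TAZ libraries against 55 in the Control libraries gave a ratio of 1.19 with an exact counting interval of 0.825 to 1.73. The fit with no filter did not call it (adjusted p = 0.549).

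**Figure D3:**
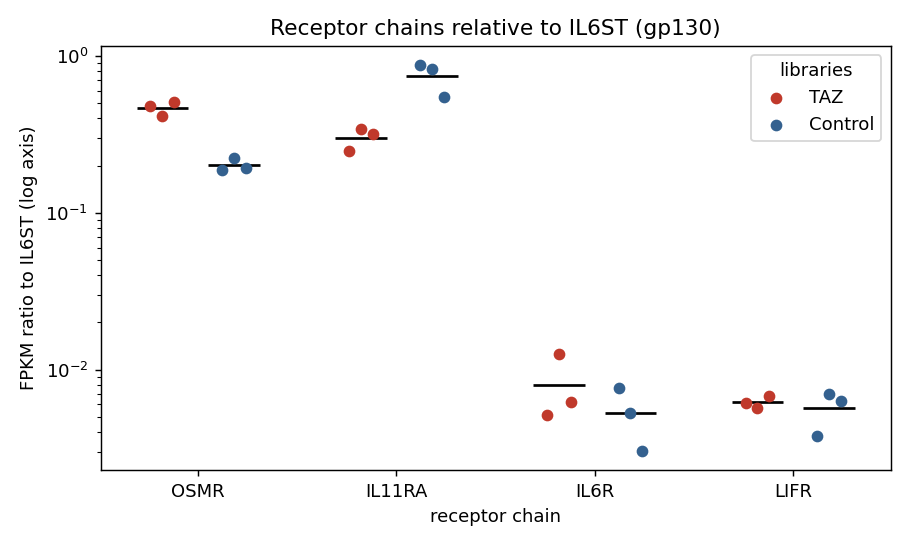
Ratio of the FPKM of each private or partner chain to that of IL6ST (log axis) in the 3 TAZ libraries (red) and the 3 Control libraries (blue), with group means as black bars. The OSMR ratio was 0.468 in the TAZ libraries against 0.201 in the Control libraries, the IL11RA ratio 0.302 against 0.75, and the IL6R and LIFR ratios lay at or under 0.0126 in every library.

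The order of levels within the family changed at the top. In the TAZ libraries it ran IL6, IL11, IL6ST, CLCF1, LIF, OSMR, IL11RA, CTF1, IL6R and LIFR, from 144 FPKM for IL6 to 0.128 FPKM for LIFR. Neighbours whose libraries overlapped were IL11 with IL6ST, CLCF1 with LIF, LIF with OSMR, and IL6R with LIFR. In the Control libraries it ran IL6ST, IL11RA, IL11, CLCF1, OSMR, LIF, IL6, CTF1, LIFR and IL6R, from 18.4 FPKM for IL6ST to 0.0931 FPKM for IL6R, with overlap between IL11RA and IL11 and between LIFR and IL6R.

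Libraries of a group differed across several members at once. TAZ replicate 2 held the highest TAZ level of 6 members, namely IL6, IL11, LIF, CLCF1, IL6R and IL11RA, and the lowest of OSMR and LIFR, and it also held the highest WWTR1 level. Control replicate 3 held the highest Control level of IL6ST, LIFR and OSMR and the lowest of 6 others. TAZ replicate 1 likewise held the highest TAZ level of IL6ST, LIFR and OSMR. It held the lowest of IL6, IL11, CLCF1, CTF1, IL6R and IL11RA. Control replicate 1 held the highest Control level of IL11, LIF, CLCF1, CTF1 and IL6R and the lowest of IL6, IL6ST, LIFR and OSMR. Similar patterns thus ran through libraries of both groups, and what lies behind them was not tested. Leaving out any 1 library kept the 6 calls among IL6, IL11, LIF, CLCF1, OSMR and IL11RA, at adjusted p-values no higher than 0.00626.

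**Figure D4:**
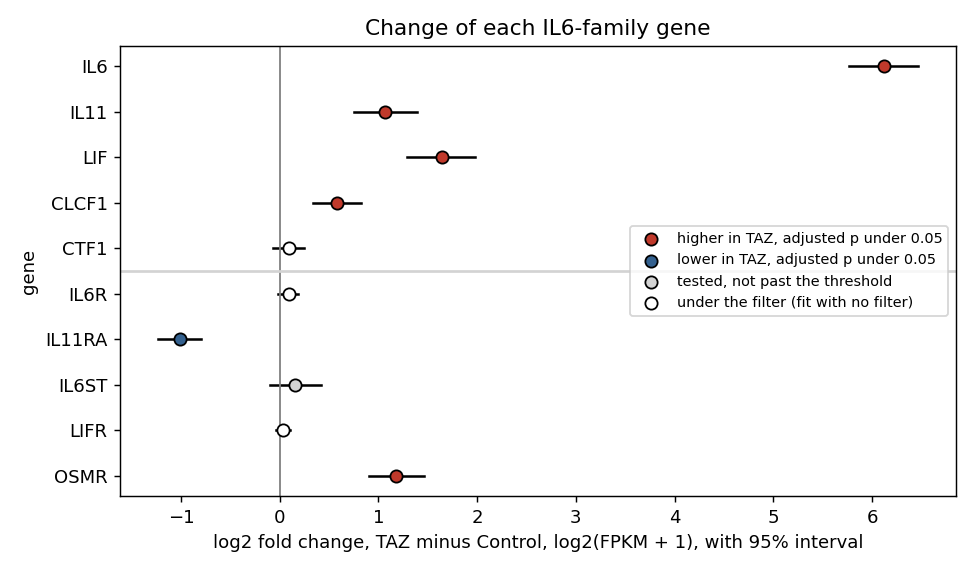
Log2 fold change on the log2(FPKM + 1) scale, TAZ minus Control, for each family gene, with the 95% interval of the limma fit. Filled red and blue points passed the threshold as higher and lower, grey did not pass, and open points lay under the filter and come from the fit with no filter, where adding 1 to values this low narrows both change and interval. IL6 stands at 6.12, the other called genes lie between -1.01 and 1.64.

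Other genes of the family were sparse. Of 9 further ligands and receptor chains listed, 8 were in the tables and 1 passed the filter. That gene, IL27RA, a receptor chain that pairs with gp130 for interleukin 27, fell to 37.2 ± 2.68 FPKM in the TAZ libraries, against 50.7 ± 2.02 FPKM in the Control libraries (SD, n = 3 each, log2 fold change -0.44, adjusted p = 0.00141). CNTFR, the private receptor chain of ciliary neurotrophic factor, which CLCF1 also uses, stood at 0.170 ± 0.0279 FPKM in the TAZ libraries and 0.218 ± 0.0765 FPKM in the Control libraries and was not called with no filter (adjusted p = 0.435).

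The kinases and STAT factors that carry the gp130 signal were called in part. Of 15 tested transducers 6 were higher, 2 lower and 7 did not pass, a called share of 53.3% with a median log2 fold change of 0.11. The share over all tested genes was 37.9%, with 15.7% higher and 22.1% lower. STAT3, the main factor downstream of gp130, stood at 32.5, 29.5 and 29.6 FPKM in TAZ replicates 1, 2 and 3, against 28.5, 29.9 and 32.5 FPKM in Control replicates 1, 2 and 3. Its values overlapped and its transcript was not called (log2 fold change 0.01, SE 0.087, adjusted p = 0.933). The receptor-bound kinases JAK1 and JAK2 rose, JAK1 to 38.7 ± 3.02 against 26.2 ± 3.47 FPKM and JAK2 to 18.6 ± 0.841 against 8.49 ± 1.46 FPKM, TAZ libraries against Control libraries. MAPK3, which encodes the kinase ERK1, and YES1, a Src family kinase, fell, with log2 fold changes of -0.65 and -0.42.

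Feedback inhibitors and sheddases were mostly higher where they were called. Of 13 tested genes of this kind 7 were higher, 1 lower and 5 did not pass (61.5% called, median log2 fold change 0.46). Among all tested genes 37.9% were called, 15.7% higher and 22.1% lower. SOCS3, the inhibitor that binds gp130 itself, stood at 37.4, 48.1 and 39.3 FPKM in TAZ replicates 1, 2 and 3, against 21.0, 18.9 and 15.5 FPKM in Control replicates 1, 2 and 3. The groups did not overlap (log2 fold change 1.13, SE 0.12, adjusted p = 8.59e-06), and TAZ replicate 2 was the highest, as it was for IL6. SOCS1 and SOCS2, inhibitors of other cytokine receptors as well, rose with log2 fold changes of 1.23 and 1.29. ADAM17, the protease that sheds IL6R and TNF, rose to 37.4 ± 2.24 FPKM in the TAZ libraries, against 25.9 ± 2.56 FPKM in the Control libraries (log2 fold change 0.52, adjusted p = 0.000848). PTPRE, a phosphatase that dampens Janus kinases, stood at 0.803 ± 0.154 FPKM in the TAZ libraries and 1.33 ± 0.164 FPKM in the Control libraries (log2 fold change -0.37, adjusted p = 0.0129). It passed the filter only through the Control libraries, fell under it when any 1 of them was left out, and was not called without TAZ replicate 3 (adjusted p = 0.0704), so its call lends no support.

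Known target genes of STAT3 moved unevenly. Of 28 targets listed, 24 were in the tables, and 3 of these lay under the filter. Of 21 tested targets 11 were higher, 2 lower and 8 did not pass (61.9% called, median log2 fold change 0.33). Over all tested genes 37.9% were called, 15.7% higher and 22.1% lower, and the list was chosen with earlier results of these data known. The 8 that did not pass were JUNB, FOS, MYC, MCL1, BCL2L1, PIM3, TIMP1 and BIRC5. ICAM1, an adhesion molecule, rose to 43.9 ± 2.11 FPKM in the TAZ libraries, against 2.48 ± 0.363 FPKM in the Control libraries. CD274, which encodes the immune checkpoint ligand PD-L1, rose to 19.7 ± 2.13 against 1.37 ± 0.105 FPKM, and TNFAIP3, an inhibitor of NF-kB, to 3.48 ± 0.387 against 0.375 ± 0.0401 FPKM, TAZ libraries against Control libraries. TNFAIP3 passed the filter only through the TAZ libraries. The proliferation genes CCND1 (cyclin D1) and PIM1 fell, with log2 fold changes of -0.64 and -0.57. How far gp130 signalling had a part in these changes was not tested.

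Factors known to act on the IL6 gene or its messenger RNA were higher more often than lower. The list pools factors that raise IL6 with factors that lower it, so its counts give no single direction for IL6. Of 23 tested 14 were higher, 1 lower and 8 did not pass (65.2% called, median log2 fold change 0.66). Over all tested genes 37.9% were called, 15.7% higher and 22.1% lower, and the list was chosen with earlier results of these data known. IRF1, an interferon-induced transcription factor, rose to 46.5 ± 3.52 FPKM in the TAZ libraries, against 9.32 ± 1.55 FPKM in the Control libraries. NFKBIZ, a nuclear cofactor of NF-kB that IL6 transcription requires in mouse macrophages, rose to 43.9 ± 3.73 against 12.0 ± 2.84 FPKM, and the NF-kB subunit gene NFKB1 to 32.4 ± 0.921 against 13.6 ± 1.18 FPKM, TAZ libraries against Control libraries. RELA, which encodes the subunit that activates the IL6 promoter, did not pass at 51.3 ± 2.35 FPKM in the TAZ libraries and 58.8 ± 2.75 FPKM in the Control libraries (log2 fold change -0.19, adjusted p = 0.0814). ZC3H12A, which encodes the nuclease Regnase-1 that degrades IL6 messenger RNA, rose as well, to 23.7 ± 3.12 against 5.58 ± 1.18 FPKM (log2 fold change 1.92, adjusted p = 1.27e-07). FOSL2, a member of AP-1, fell with a log2 fold change of -0.47. SOCS3, CEBPB, CEBPD, FOS and JUNB each stand in more than 1 of these lists, so the counts are not independent.

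**Figure D5:**
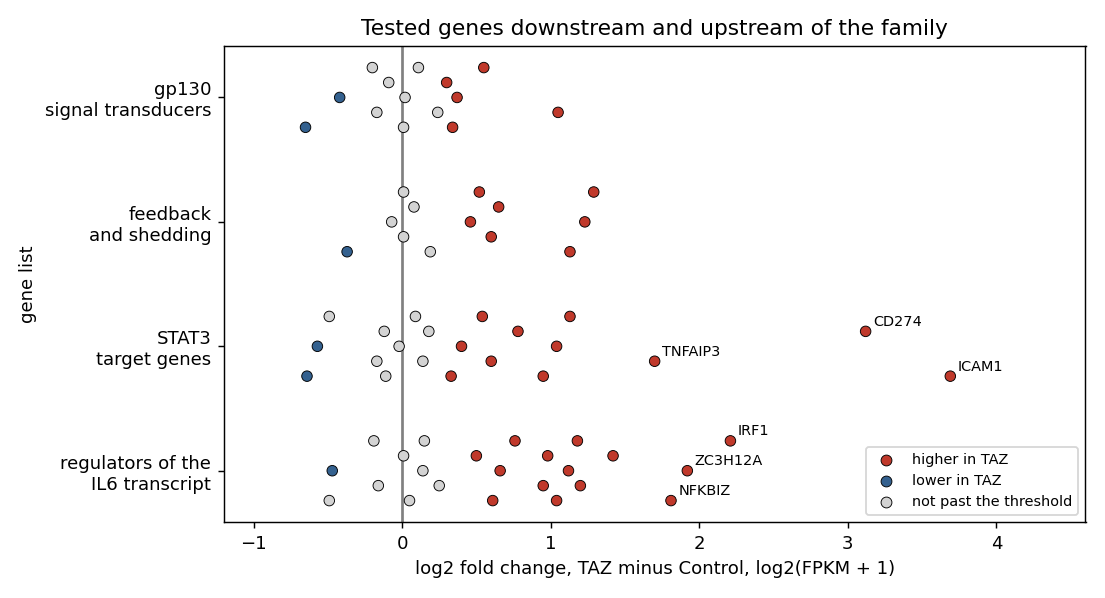
Log2 fold change on the log2(FPKM + 1) scale, TAZ minus Control, of tested genes in 4 lists (y axis), with 1 gene left out. Red points are higher and blue points lower in the TAZ libraries past the threshold, grey points did not pass, and the vertical spread within a list only separates points. Among the STAT3 targets ICAM1 lies farthest right at 3.69, and among the transducers drawn JAK2 does at 1.05.

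Among the 5 genes whose log2 values over the 6 libraries were most like those of IL6 were LOC102170691, TNFAIP3, ACSL5 and LOC102174841, with Pearson correlations of 0.9996, 0.9995, 0.999 and 0.9989. Those most like IL11RA were DBN1, RGS12, EXOC7, PEPD and PRDX2, with correlations of 0.9995, 0.9991, 0.9989, 0.9987 and 0.9986. These values describe 6 points in 2 separate groups, so they follow mainly the step between the groups. LOC102170691, TNFAIP3 and LOC102174841 had Control means of 0.116, 0.375 and 0.461 FPKM and passed the filter only through the TAZ libraries. They could thus enter this ranking only by being higher there. The step itself differed in size: ACSL5, an acyl-CoA synthetase gene, had a log2 fold change of 1.52, TNFAIP3 of 1.70 and LOC102174841 of 3.12, beside 6.12 for IL6.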

How the data were processed

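RNA was extracted with TRIzol, and a VAHTS Universal V6 kit served for library preparation, per the labels' protocols. The submitters' processing notes name fastp, HISAT2 and HTSeq, with no versions. The sources used here do not give the genome build, annotation or strand setting: coordinates are left out, and genes that overlap another, on either strand, are uncertain. FPKM values were deposited by the authors, per the file headers, in 1 table per group. Of 16285 rows, 23 held a date in place of a symbol and were left out. The other 16262 symbols were found in the RefSeq table of assembly ARS1.2, used for names only. Fragment numbers were recovered from the FPKM steps, as multiples of 0.5 within 0.005, for 99.99% of rows above 0, and made up 99.67% to 99.71% of the library totals. A single length per gene and a total per library returned the values of both tables, so FPKM were compared across them. What a step of 0.5 stands for is not stated. Floors and intervals cover counting error only. Chi-square per degree of freedom between libraries of a group was 9.51 to 14.9, so no pair lay within sampling noise.

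limma 3.58.1 in R 4.3.3 (empirical Bayes with a mean-variance trend, two-sided, Benjamini-Hochberg adjustment over all tested genes, threshold 0.05) compared TAZ with Control on log2(FPKM + 1), for genes that reached 1 FPKM in 3 libraries or more. Fold changes on this scale understate low genes. The procedure was tested on simulated data with 200 changed genes, against 4074 called here, so that test does not cover changes this widespread. All members are named, and of each list the 3 genes with the lowest adjusted p in each direction, a few fixed genes, and the 5 genes most correlated with IL6 and with the receptor chain of lowest adjusted p. A few genes that this rule names are counted in the lists but not reported here. CD14, CD68, CD3E, CD79A, ITGB2, PTPRC, CIDEC, LIPE and CD36 were chosen after their values were seen. The stromal markers and the uncalled STAT3 targets were also named after their values were seen. Members and lists were chosen with earlier results of these data known. Alternatives were other pseudocounts, filters, scalings and fits, the replicate block, voom on recovered fragments, and leaving out each library. Sequences were not used here.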

Additional observations from a re-analysis of the deposited data

How the results depend on the processing

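The calls of IL6, IL11, LIF, CLCF1, OSMR and IL11RA kept their direction and their side of the threshold under each of the 15 alternatives run for them, with log2 fold changes of 5.87 to 7.08 for IL6, 0.93 to 1.22 for IL11, 1.41 to 2.03 for LIF, 0.47 to 0.70 for CLCF1, 1.06 to 1.44 for OSMR and -1.11 to -0.96 for IL11RA. Of 445 values of single genes under alternatives, 441 kept direction and call. IL6ST was called without Control replicate 3, and PTPRE was not called without TAZ replicate 3 (-0.30, adjusted p = 0.0704) and not testable without any 1 of the Control libraries. TNFAIP3 fell under the filter when any 1 of the TAZ libraries was left out, so its call was not tested against them. STAT3 turned to -0.03 without Control replicate 1 and to -0.03 without TAZ replicate 1, uncalled in both, and reached at most 0.06 when another library was left out. With no filter, 2 of the further family genes were called in place of 1. The number of called genes over all tested was 3044 to 4266 when 1 library was left out. Same-numbered libraries did not deviate together (correlations of -0.436, -0.112 and -0.403 for numbers 1, 2 and 3), so pairing by number was not seen. Deviations from a group mean cancel within the group, so both signs must occur. These correlations therefore cannot settle which libraries pair. Some libraries with different numbers did deviate together. The correlation was 0.691 for TAZ replicate 1 with Control replicate 3. It was 0.534 for TAZ replicate 2 with Control replicate 1, and 0.552 for TAZ replicate 3 with Control replicate 2. What these libraries share was not tested. A fit with the replicate number as a block, which does not match libraries in that way, called 3512 genes in place of 4074 and the same 6 family genes. CTF1, IL6R and LIFR, with at most 24 fragments per library, were not called by voom with no filter either (adjusted p = 0.497, 0.142 and 0.419), an alternative chosen after seeing the data, and depth limits what can be said of them.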
